A study of Saccharomyces cerevisiae with 10 samples.

Results

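The 10 genes described here belong to the mating pheromone response of budding yeast (Saccharomyces cerevisiae): AGA1, FUS1, FUS2, PRM1, FIG1, PRM6, FUS3, SST2, FAR1 and KAR4. They were chosen by name and identifier, and each had its own row in all 9 deposited tables, 10 of 6816 rows that name a single gene. Their levels were read in strains that lack a subunit of RSC, a chromatin-remodelling complex that slides and evicts nucleosomes at promoters, and in the wild-type (WT) strains beside them.

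In experiment 1 the htl1Δ, npl6Δ, rsc1Δ, rsc2Δ and rtt102Δ strains and WT were grown in YPD, a glucose medium, and sampled in logarithmic growth; the titles of these 6 libraries give 10 generations. In experiment 2 an htl1Δ strain and a WT strain, both carrying GALpr-HTL1 (HTL1 behind a galactose promoter), were first grown to saturation in YPGR, presumably galactose with raffinose, the medium that turns that promoter on. After a wash they grew for another 10 generations in YPD or in YPGR, which gave 4 libraries. All strains are S288C segregants from tetrads of heterozygous diploids, and no pheromone treatment is mentioned in the labels. Polyadenylated RNA was sequenced from 1 library per strain and medium, so the differences have no replicates behind them and none is tested; each value describes 1 library.

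Haploid yeast of each mating type secretes a peptide pheromone that is read by a receptor on cells of the other type. The receptor releases a G protein that feeds a MAP kinase cascade, and the kinases Fus3 and Kss1 free the transcription factor Ste12 from its repressors Dig1 and Dig2. Ste12 binds pheromone response elements and raises genes for agglutination, growth arrest, polarised growth and cell fusion; many of them keep a basal level in haploid cells without pheromone.

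The element itself, TGAAACA, was searched on both strands of the 500 bases before each start codon, in the R64 reference sequence of RefSeq (the assembly of sacCer3). At least 1 copy stood before 8 of the 10 genes, with 15 copies in all, against 12% of 6006 promoters of the same length. At least 2 copies stood before 6 of the 10, against 0.932% of all promoters. FIG1 and FAR1 had none in this window. The looser core GAAAC stood before all 10, but also before 74.4% of all promoters. The stretches below show how the copies are arranged in some genes with a large difference between libraries (FUS1, PRM1, AGA1, SST2). Also shown are 2 others with paired copies. In experiment 2 the highest level was 24.1-fold the lowest for FIG1, which has no copy, and 54.5-fold for PRM6. Both had low levels and are not shown. The stretches are on the strand of the gene, with the copies of the element in capitals. A copy on the opposite strand reads TGTTTCA.
FUS1, chrIII:71601-71664, plus strand: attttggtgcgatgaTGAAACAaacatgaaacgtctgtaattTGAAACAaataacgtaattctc
PRM1, chrXIV:110721-110779, plus strand: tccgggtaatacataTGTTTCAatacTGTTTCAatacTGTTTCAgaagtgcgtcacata
FUS2, chrXIII:736690-736747, plus strand: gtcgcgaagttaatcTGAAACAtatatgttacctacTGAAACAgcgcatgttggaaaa
KAR4, chrIII:27769-27850, plus strand: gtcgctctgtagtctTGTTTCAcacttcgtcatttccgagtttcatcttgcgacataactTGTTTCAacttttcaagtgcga
AGA1, chrXIV:703487-703513, plus strand: cataattttcTGAAACAatattaaaac
SST2, chrXII:1041595-1041621, minus strand: tattcaatttTGAAACAatgatcccaa

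The copies of FUS1 lay 181 and 154 bases before its start codon and those of FUS2 215 and 194 bases before. PRM1 had 3 copies on the strand opposite to the gene, 175, 164 and 153 bases before the start codon. AGA1 and SST2 had 1 copy each, at 196 and 239 bases. In FUS3 (256 and 150 bases) and PRM6 (407 and 150 bases) the copies faced opposite ways. A match is a string of letters and not a shown binding site.

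**Figure D1:**
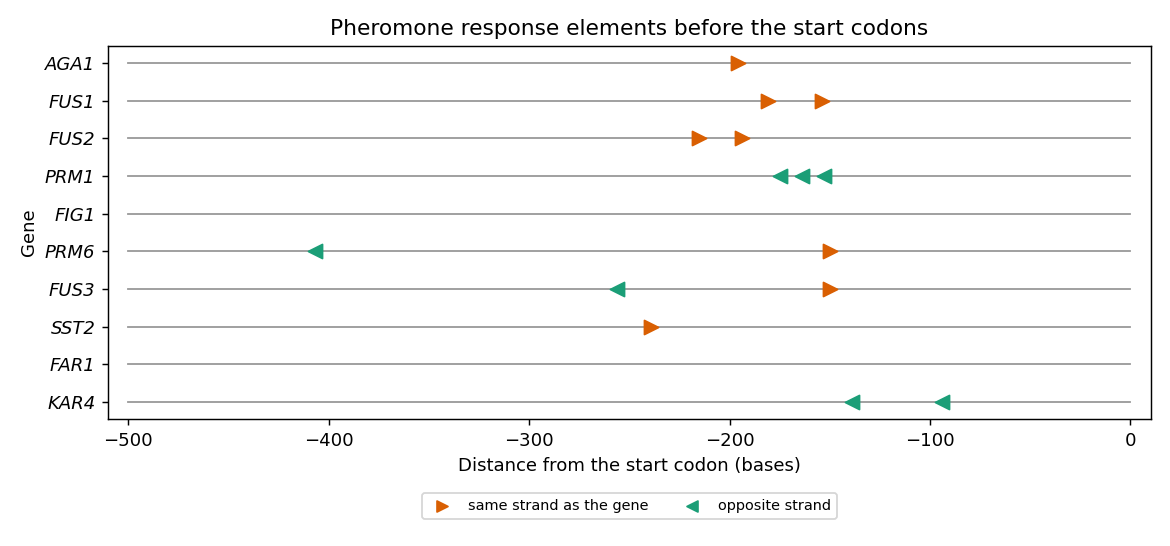
Copies of TGAAACA in the 500 bases before the start codon of each gene, placed by distance from the start codon; arrows to the right are on the strand of the gene, arrows to the left on the opposite strand. Of the 15 copies, all but 1 lie within 256 bases of the start codon, and FIG1 and FAR1 have none.

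Some facts of the libraries bear on these genes. Steps between the lowest values put the libraries at about 9010000 to 11900000 fragments. The estimate was made in each deposited pair, and for libraries in more than 1 pair it differed between pairs. For WT in YPGR, for example, it was 11210000 and 11900000, so the range is rough. The labels give no mating type, but transcripts did. STE2, which encodes the receptor of alpha-factor and marks a cells, had 558 FPKM (fragments per kilobase of transcript, scaled to library size) in htl1Δ of experiment 1. Its level was 766 FPKM for rsc1Δ, 360 for rsc2Δ and 747 for rtt102Δ, whereas npl6Δ had 5.10 FPKM and WT 6.60 FPKM. STE3, whose product binds a-factor and marks alpha cells, had 294 FPKM in npl6Δ against 450 FPKM in WT, and no more than 3.92 FPKM in the remaining libraries of experiment 1. Of the GALpr-HTL1 libraries, the one labelled htl1Δ in YPD had 593 FPKM of STE2 and 4.62 FPKM of STE3, and the other 3 had at most 6.49 FPKM of STE2 and at least 163 FPKM of STE3. All 7 genes of an a-specific list were at least 2-fold higher, and all 4 of an alpha-specific list at least 2-fold lower, in htl1Δ, rsc1Δ, rsc2Δ, rtt102Δ and the htl1Δ library in YPD of experiment 2 than in the matching WT. The a-specific genes summed to 28121 to 72976 FPKM in these 5 libraries and to 63.4 to 243 FPKM in the other 5. The alpha-specific genes summed to 59.1 to 124 FPKM in the first 5 and to 2159 to 11384 FPKM in the others. The library labelled htl1Δ in YPD was thus of the a type and the one labelled htl1Δ in YPGR of the alpha type, although both titles name the same genotype. HTL1 was nearly absent from htl1Δ of experiment 1 (2.09 FPKM) but not from the libraries labelled htl1Δ of experiment 2 (239 FPKM in YPD and 2634 FPKM in YPGR). HO, the mating-type switching endonuclease gene, was at 13.5 to 46.3 FPKM in experiment 1 and at 0.134 FPKM or less in experiment 2.

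Levels within an experiment are set on 1 scale below. In experiment 1 the tables share the WT library, whose values differ between them by a factor of 1.01 to 1.05, and the deletion levels were multiplied by that factor. In experiment 2 the tables were joined through the libraries they share, which closes to a factor of 1.02. Ratios, in contrast, were taken within a table, except those over rtt102Δ, which used the levels on 1 scale. Each ratio was log2((FPKM + 1)/(FPKM + 1)) of the first-named library over the second. A gene was counted in a comparison if the authors' status was OK and 1 of the 2 libraries had at least 5 FPKM, and it counted as lower or higher where the ratio was -1 or below, or 1 or above (2-fold, a rule of size and not a test).

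AGA1 had the lowest ratio of the measured genes in htl1Δ, npl6Δ, rsc1Δ and rsc2Δ over WT, though not in rtt102Δ over WT, where FIG1 did. It encodes the wall-anchored subunit of the a-agglutinin adhesin, which holds mating cells together (YNR044W, chromosome XIV, 703699 to 705876, sacCer3, plus strand, here and below the whole open reading frame). In experiment 1 it was at 25.7 FPKM in htl1Δ, 30.1 FPKM in npl6Δ, 40.1 FPKM in rsc1Δ, 21.2 in rsc2Δ and 112 FPKM in rtt102Δ, against 139 FPKM in WT. So 4 deletion libraries lay far below WT and rtt102Δ lay near it. The log2 ratio over WT was -2.39 in htl1Δ, -2.17 in npl6Δ, -1.77 in rsc1Δ and -2.65 in rsc2Δ, but -0.31 in rtt102Δ. In rsc2Δ only 22 of 6047 genes measured had a lower ratio. The level in WT stood for about 2572 fragments and that in rsc2Δ for about 467, so neither rests on a few reads. The authors' deposited table called AGA1 significant in these 4 comparisons, with q-values of 0.0132 for htl1Δ, 0.0274 for npl6Δ, 0.0126 for rsc1Δ and 0.0132 for rsc2Δ, and not for rtt102Δ (q-value 0.999). That test compares 2 single libraries and not the strains.

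The fusion genes FUS1 and PRM1 were lower too, by less than AGA1. FUS1, a membrane protein of the mating projection that is needed for cell fusion (YCL027W, chromosome III, 71803 to 73341, plus strand), was at 14.0 FPKM in htl1Δ, 10.1 FPKM in npl6Δ, 11.1 FPKM in rsc1Δ, 8.34 in rsc2Δ and 23.6 FPKM in rtt102Δ, against 29.4 FPKM in WT. It was at least 2-fold lower in the first 4, with log2 ratios from -1.70 in rsc2Δ to -1.01 in htl1Δ, and at -0.30 in rtt102Δ. PRM1, which helps the plasma membranes of mating cells to fuse (YNL279W, chromosome XIV, 110917 to 112902, plus strand), was at 6.16 FPKM in htl1Δ, 6.95 FPKM in npl6Δ, 10.3 FPKM in rsc1Δ, 9.05 in rsc2Δ and 12.2 FPKM in rtt102Δ, against 16.4 FPKM in WT. By the 2-fold rule it was lower in htl1Δ (-1.28) and npl6Δ (-1.13) alone. FUS2, a cytoplasmic fusion factor (YMR232W, chromosome XIII, 736926 to 738959, plus strand), was low throughout, at 2.63 FPKM in rsc2Δ to 4.51 FPKM in npl6Δ, against 6.26 FPKM in WT. All its ratios lay below 0, from -0.99 in rsc2Δ to -0.40 in npl6Δ, and none passed the rule.

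The ion transport genes FIG1 and PRM6 were low, as FUS2 was. FIG1, a membrane protein of calcium influx during mating (YBR040W, chromosome II, 316968 to 317864, plus strand), was at 4.93 FPKM in htl1Δ, 1.80 FPKM in npl6Δ, 3.58 FPKM in rsc1Δ, 4.37 in rsc2Δ and 4.12 FPKM in rtt102Δ, against 7.65 FPKM in WT. Of these, npl6Δ passed the rule at -1.62, on about 13 fragments against about 50 in WT. PRM6, a potassium transport protein (YML047C, chromosome XIII, 179893 to 181075, minus strand), was at 1.97 FPKM in htl1Δ, 0.606 FPKM in npl6Δ, 0.363 FPKM in rsc1Δ, 3.84 in rsc2Δ and 1.61 FPKM in rtt102Δ, against 4.14 FPKM in WT. It stayed under 5 FPKM in every library of experiment 1 and is not in the counts there. Its row shares its coordinates with that of YML047W-A on the other strand and starts before the RefSeq gene (180017 to 181075), so its value is uncertain.

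Among the signalling genes, SST2 differed in some deletions and not in others. Sst2 is the GTPase-activating protein that switches the pathway off (YLR452C, chromosome XII, 1039270 to 1041366, minus strand). It was at 40.7 FPKM in htl1Δ, 84.9 FPKM in npl6Δ, 71.3 FPKM in rsc1Δ, 32.6 in rsc2Δ and 92.9 FPKM in rtt102Δ, against 95.9 FPKM in WT. The log2 ratio was -1.22 in htl1Δ and -1.53 in rsc2Δ, where AGA1 was also lowest, and -0.42 in rsc1Δ, -0.17 in npl6Δ and -0.05 in rtt102Δ. FUS3, the MAP kinase (YBL016W, chromosome II, 192451 to 193512, plus strand), was at 71.9 to 84.1 FPKM in htl1Δ, npl6Δ, rsc1Δ and rsc2Δ and at 125 FPKM in rtt102Δ, against 116 FPKM in WT. Those 4 libraries lay together below WT, at ratios from -0.68 to -0.46, without reaching 2-fold.

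FAR1 encodes the inhibitor that stops the cell cycle in G1 and guides polarity (YJL157C, chromosome X, 123836 to 126328, minus strand). It was at 36.9 FPKM in rsc2Δ and at 47.9 to 56.3 FPKM in the other 4 deletions, against 56.0 FPKM in WT, and its ratios ran from -0.59 in rsc2Δ to 0.01 in rtt102Δ. KAR4, a transcription factor that works with Ste12 on nuclear fusion genes (YCL055W, chromosome III, 27929 to 28936, plus strand), was at 35.7 to 43.0 FPKM in htl1Δ, npl6Δ, rsc1Δ and rsc2Δ and at 47.7 FPKM in rtt102Δ, against 60.9 FPKM in WT. Its ratios lay between -0.75 and -0.35.

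**Figure D2:**
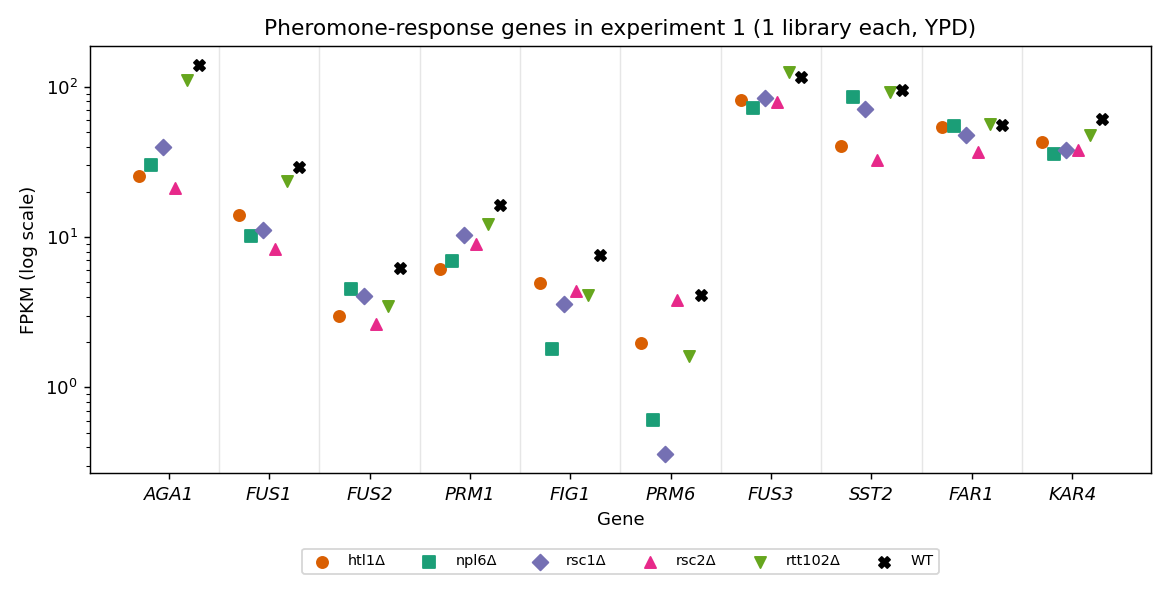
Level of each gene in the 6 libraries of experiment 1, in FPKM on a log scale and brought to 1 scale; each point is 1 library. AGA1 is at 21.2 to 40.1 FPKM in htl1Δ, npl6Δ, rsc1Δ and rsc2Δ, against 139 FPKM in WT, with rtt102Δ at 112 FPKM.

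Counted by comparison, 4 of 9 measured genes were at least 2-fold lower in htl1Δ than in WT (AGA1, PRM1, SST2, FUS1), where 2.86% of all 6044 genes measured were. In npl6Δ 4 of 9 were (AGA1, FIG1, FUS1, PRM1), where 3.22% of 6051 genes were. In rsc1Δ 2 of 9 were (AGA1, FUS1), where 2.11% of 6019 genes were. In rsc2Δ 3 of 9 were (AGA1, FUS1, SST2), where 2.61% of 6047 genes were. In rtt102Δ none of 9 was, where 1.27% of 5988 genes were. None of the 10 genes was 2-fold higher in these comparisons, where 3.89% of all genes were in htl1Δ, 4.63% in npl6Δ, 2.04% in rsc1Δ, 3.74% in rsc2Δ and 1.17% in rtt102Δ. In the first 4 comparisons all 9 measured genes, and PRM6 as well, had ratios below 0, with medians over the measured genes of -0.86 in htl1Δ, -0.75 in npl6Δ, -0.62 in rsc1Δ and -0.79 in rsc2Δ. In rtt102Δ 7 of 9 were below 0, with a median of -0.31. The median over all genes measured was between 0.00 and 0.01 in each. These comparisons share the WT library, so a high value there lowers all of them together. With a pseudocount of 10 FPKM the counts were 2 in htl1Δ, 1 in npl6Δ and 1 in rsc1Δ.

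**Figure D3:**
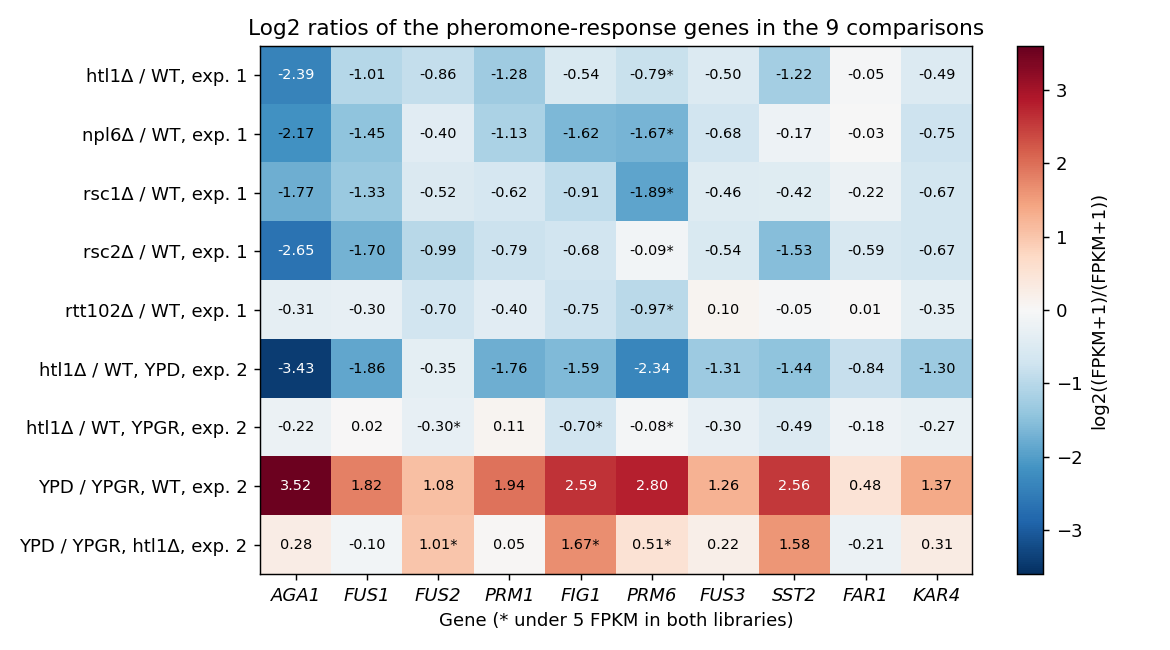
Log2 ratio of each gene (columns) in the 9 comparisons (rows), first-named library over the second, with 1 FPKM added to each; an asterisk marks a gene under 5 FPKM in both libraries. Ratios are below 0 for all genes in htl1Δ, npl6Δ, rsc1Δ and rsc2Δ of experiment 1 and above 0 for all genes in YPD over YPGR of the WT strain.

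Mating type differed together with the deletion in htl1Δ, rsc1Δ, rsc2Δ and rtt102Δ, so in these comparisons with WT the 2 cannot be told apart. For AGA1, a level of 112 FPKM went with 747 FPKM of STE2 (rtt102Δ), and a level of 30.1 FPKM with 294 FPKM of STE3 (npl6Δ). These libraries differ in deletion as well as in receptor, and the part of mating type in the levels was not tested. The comparison was therefore also made, after the data had been seen, with rtt102Δ in place of WT, which sets a library against a library of the same receptor type. AGA1 then had a log2 ratio of -2.08 in htl1Δ, -1.45 in rsc1Δ and -2.34 in rsc2Δ. FUS1 was at -0.71, -1.03 and -1.40 in the same order, and SST2 at -1.17, -0.38 and -1.48. By the 2-fold rule 2 of 7 measured genes were lower in htl1Δ than in rtt102Δ (2.27% of all genes), 2 of 7 in rsc1Δ (2.19%) and 3 of 7 in rsc2Δ (2.28%). None was 2-fold higher, where 3.67% of all genes were in htl1Δ, 2.24% in rsc1Δ and 3.84% in rsc2Δ. FIG1, FUS2 and PRM6 were under 5 FPKM in both libraries of each pair. FIG1 had 4.93 FPKM in htl1Δ, and in rsc2Δ 4.37 FPKM, against 4.12 FPKM in rtt102Δ, so its lower level against WT did not recur there. The rtt102Δ strain lacks an RSC subunit itself.

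**Figure D4:**
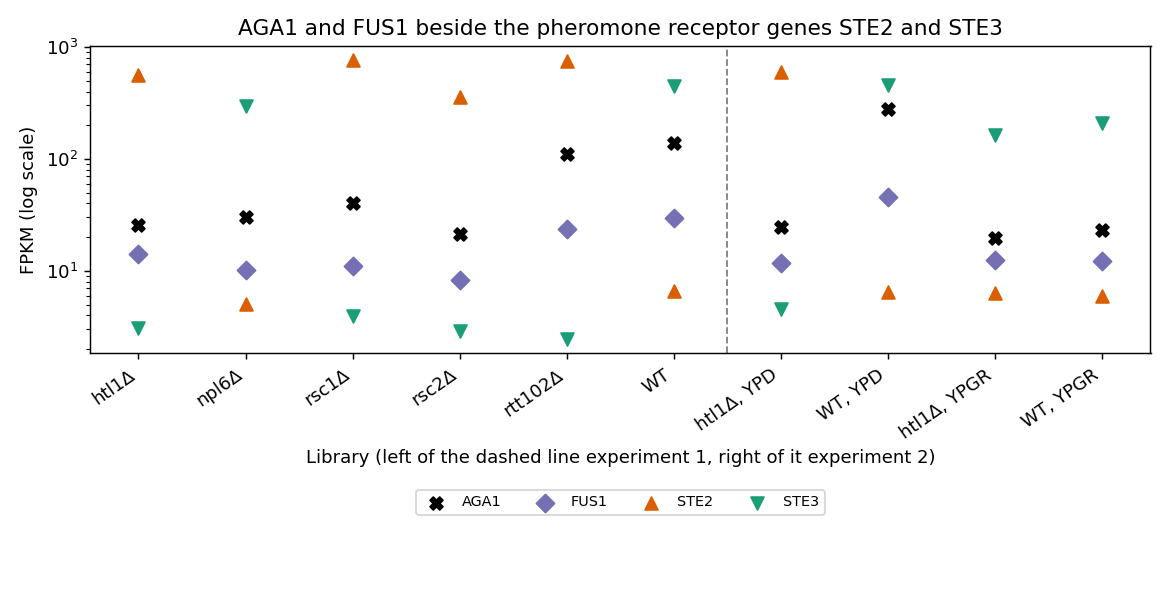
AGA1 and FUS1 beside the receptor genes STE2 (a cells) and STE3 (alpha cells) in all 10 libraries, in FPKM on a log scale; each point is 1 library, and the experiments are scaled separately. AGA1 is high in rtt102Δ (112 FPKM), which carries STE2, and low in npl6Δ (30.1 FPKM), which carries STE3.

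In experiment 2 the WT strain in YPD had the highest level of all 10 genes among the 4 libraries. AGA1 was at 24.8 FPKM in htl1Δ in YPD against 277 FPKM in WT in YPD, and at 19.8 FPKM in htl1Δ in YPGR against 23.3 FPKM in WT in YPGR. FUS1 was at 11.8 FPKM in htl1Δ in YPD against 45.6 FPKM in WT in YPD, and at 12.5 FPKM in htl1Δ in YPGR against 12.2 FPKM in WT in YPGR. For AGA1 and FUS1 the library of WT in YPD thus stood apart from the other 3, which lay close together. For SST2, FIG1 and FUS2 the other 3 were further apart, and the htl1Δ library in YPD lay above both in YPGR. FUS2 was at 4.28 FPKM in htl1Δ in YPD against 5.75 FPKM in WT in YPD, and at 1.59 FPKM in htl1Δ in YPGR against 2.19 FPKM in WT in YPGR.

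In YPD 8 of 10 genes were at least 2-fold lower in htl1Δ than in WT, where 2.06% of 6081 genes measured were, and none was 2-fold higher, where 3.78% were. The log2 ratios were -3.43 for AGA1, -2.34 for PRM6, -1.86 for FUS1, -1.76 for PRM1, -1.59 for FIG1, -1.44 for SST2, -1.31 for FUS3 and -1.30 for KAR4. FAR1 (-0.84) and FUS2 (-0.35) did not pass the rule. The authors' deposited table called AGA1 (q-value 0.00931) and PRM1 (q-value 0.0232) significant. This comparison sets the a-type library labelled htl1Δ, in which HTL1 was at 239 FPKM, against an alpha-type WT library with 572 FPKM of HTL1 (WT of experiment 1, scaled separately, had 293 FPKM), and these differences cannot be told apart from the deletion.

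In YPGR, where both libraries were of the alpha type and HTL1 had 2634 FPKM in htl1Δ against 2815 FPKM in WT, none of 7 measured genes was 2-fold lower or higher, where 0.957% and 0.726% of 6061 genes were. The ratios ran from -0.49 for SST2 (17.4 FPKM in htl1Δ against 24.8 FPKM in WT, on the scale of that table) to 0.11 for PRM1, with a median of -0.22. FIG1, FUS2 and PRM6 were under 5 FPKM in both libraries.

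The medium comparison within WT used 2 libraries of the alpha type, with HTL1 at 572 FPKM in YPD and 2815 FPKM in YPGR. Medium and HTL1 level therefore cannot be told apart in it. In YPD 9 of 10 genes were at least 2-fold higher than in YPGR, where 13.4% of 6080 genes were (12.9% were lower), and the median ratio was 1.88. AGA1 had a log2 ratio of 3.52, PRM6 of 2.80, FIG1 of 2.59, SST2 of 2.56, PRM1 of 1.94 and FUS1 of 1.82. SST2 was at 143 FPKM in YPD and 23.5 FPKM in YPGR, and FIG1 at 14.4 FPKM in YPD and 1.56 FPKM in YPGR. KAR4 (1.37), FUS3 (1.26) and FUS2 (1.08) passed the rule too, and FAR1 (0.48) did not. The authors' deposited table called none of the 10 significant, at q-values from 0.283 upward, and called 7 genes in all.

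Between the libraries labelled htl1Δ, which carry transcripts of opposite mating types and both contain HTL1 RNA, 1 of 7 measured genes was at least 2-fold higher in YPD than in YPGR, where 13.9% of 6126 genes were (13.1% were lower). This was SST2, at 52.1 FPKM in YPD and 16.5 FPKM in YPGR (log2 ratio 1.58). AGA1 had a ratio of 0.28, FUS3 0.22, PRM1 0.05, FUS1 -0.10 and FAR1 -0.21. FIG1 was at 4.12 FPKM in YPD and 0.600 FPKM in YPGR, and FUS2 at 4.28 FPKM in YPD and 1.59 FPKM in YPGR, both under the limit of 5 FPKM. Medium, mating type and HTL1 level (239 FPKM in YPD, 2634 FPKM in YPGR) cannot be told apart here. The values are not those of 1 strain in 2 media. Since 4 libraries enter 4 comparisons, these results share libraries, and the high values of WT in YPD stand behind both its comparisons.

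**Figure D5:**
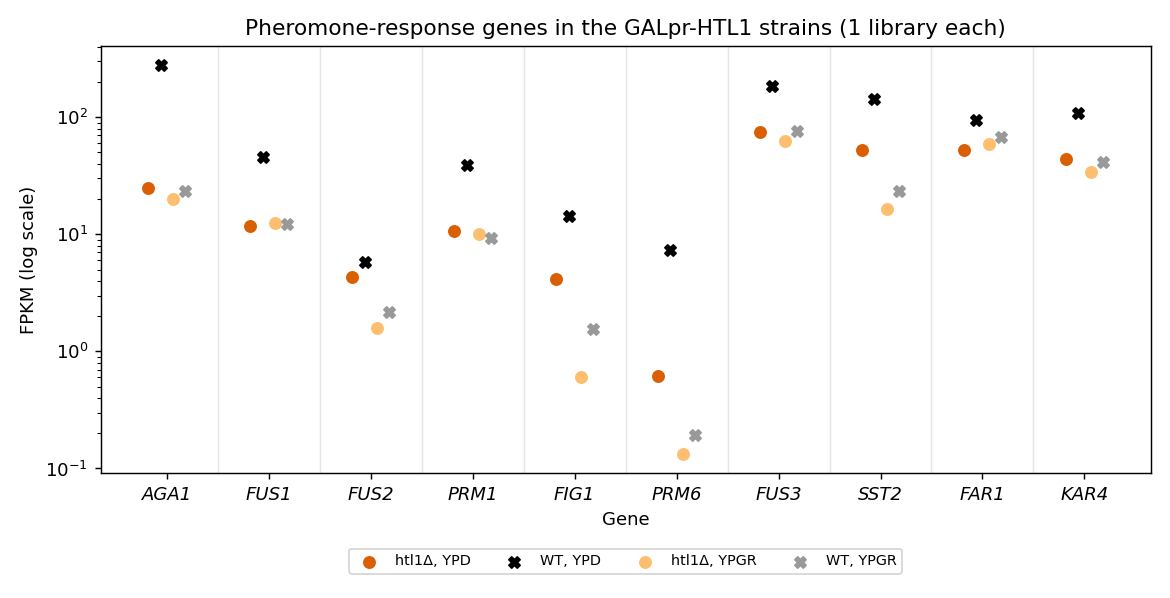
Level of each gene in the 4 libraries of the GALpr-HTL1 strains, in FPKM on a log scale and brought to 1 scale; each point is 1 library. WT in YPD is the highest of the 4 for every gene, with AGA1 at 277 FPKM against 19.8 to 24.8 FPKM in the other 3.

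The WT libraries in YPD of both experiments carried alpha-type transcripts, came from different strains and were scaled separately. AGA1 was at 277 FPKM in that of experiment 2 and at 139 FPKM in that of experiment 1, PRM1 at 38.8 and 16.4 FPKM, FUS1 at 45.6 and 29.4 FPKM and FAR1 at 94.5 and 56.0 FPKM in the same order. FUS2 went the other way, at 5.75 FPKM in experiment 2 and 6.26 FPKM in experiment 1. Levels of these genes in WT therefore differed between the experiments by amounts that the tables give no error for.

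The rest of the pathway was read from lists. Of 15 other pheromone-induced genes, 13 had a row of their own and were measured. In htl1Δ of experiment 1, 1 was at least 2-fold higher and none lower: GIC2, an effector of the polarity GTPase Cdc42, at 164 FPKM against 78.8 FPKM in WT (1.05). In npl6Δ 2 were lower, AFR1, which is needed for normal mating projections (-1.09), and FIG2, a wall adhesin of mating cells (-1.01). In rsc2Δ 1 was lower, PRM8 (-1.22), a membrane protein. None was 2-fold different in rsc1Δ, rtt102Δ or the YPGR pair. Of all genes measured, 3.89% were higher in htl1Δ, 3.22% lower in npl6Δ and 2.61% lower in rsc2Δ. In the comparisons with none, 0.726% to 2.11% of all genes were past the rule in each direction. With 13 genes, counts this small say little about the list. The medians of the list were -0.43 in htl1Δ, -0.67 in npl6Δ, -0.20 in rsc1Δ, -0.34 in rsc2Δ and -0.05 in rtt102Δ.

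In the htl1Δ and WT pair in YPD of experiment 2 the list split, with FIG2 lower (11.0 FPKM in htl1Δ against 34.0 FPKM in WT on the scale of that table, -1.54), PRM5, a target of the cell integrity pathway as well, higher (177 against 68.2 FPKM, 1.37), and a median of -0.03. In YPD over YPGR of WT 2 were at least 2-fold higher, PRM3, a nuclear fusion protein (2.26), and FIG2 (1.89), and 4 were lower: AFR1 (-2.64), PRM4 (-2.58), PRM5 (-2.18) and CHS1, a chitin synthase gene (-1.60). Between the libraries labelled htl1Δ, in YPD (a type) over YPGR (alpha type), 2 were higher and 4 lower, with PRM4 at -2.80, AFR1 at -1.97, PRM3 at 1.84 and CHS1 at -1.59. So AFR1, PRM4 and CHS1 were lower in YPD within WT, the opposite direction to the 10 genes there, and were also lower in the YPD library of the pair labelled htl1Δ. Of all genes, 2.06% were lower and 3.78% higher in htl1Δ over WT in YPD. In YPD over YPGR of WT 13.4% were higher and 12.9% lower, and between the libraries labelled htl1Δ 13.9% were higher and 13.1% lower.

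Of the 15 genes of the signalling core 14 were measured. None was 2-fold different in any comparison of experiment 1, where 1.27% to 3.22% of all genes were lower and 1.17% to 4.63% higher. None was in the YPGR pair either, where 0.957% of all genes were lower and 0.726% higher. With 14 genes, a count of none is near these shares. The medians of the core lay between -0.11 and -0.03 in experiment 1. STE12, the transcription factor of the pathway, was at 50.7 FPKM in htl1Δ, 68.2 FPKM in npl6Δ, 63.1 FPKM in rsc1Δ, 43.1 in rsc2Δ and 58.1 FPKM in rtt102Δ, against 60.8 FPKM in WT. Its log2 ratio over WT was 0.16 in npl6Δ and 0.05 in rsc1Δ, and -0.26 in htl1Δ, -0.48 in rsc2Δ and -0.07 in rtt102Δ. How it bears on AGA1 and FUS1 was not tested. In experiment 2 STE12 was the 1 core gene past the rule between htl1Δ and WT in YPD, where 2.06% of all genes were lower and 3.78% higher. It was at 48.6 FPKM in htl1Δ against 99.2 FPKM in WT in YPD (log2 ratio -1.01), and at 16.2 FPKM in htl1Δ against 19.3 FPKM in WT in YPGR. Over YPGR, STE12 was higher in YPD by 2.30 on the log2 scale in WT and by 1.5 between the libraries labelled htl1Δ. GPA1, the G protein alpha subunit, was higher by 1.33 in WT. No other core gene passed the rule there, where 13.4% of all genes were higher in WT and 13.9% between the libraries labelled htl1Δ. TEC1, the partner of Ste12 on genes of filamentous growth, was at 47.8 FPKM in htl1Δ, 55.3 FPKM in npl6Δ, 49.7 FPKM in rsc1Δ, 30.1 in rsc2Δ and 64.3 FPKM in rtt102Δ, against 79.1 FPKM in WT, past the rule in rsc2Δ (-1.36). It also passed the rule in htl1Δ over WT in YPD of experiment 2, at 44.7 FPKM in htl1Δ against 90.9 FPKM in WT on the scale of that table (-1.01).

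The phosphatase genes MSG5, PTP2 and PTP3, whose products act on MAP kinases of the pathway, did not pass the 2-fold rule in any comparison of a deletion with WT. In these comparisons 0.957% to 3.22% of all genes were lower and 0.726% to 4.63% higher. With 3 genes, a count of none says little. PTP3 came nearest, at 0.97 in npl6Δ (25.7 against 12.6 FPKM in WT on the scale of that table, 2.03-fold without the pseudocount). In htl1Δ over WT in YPD of experiment 2, PTP2 was at 0.73 and PTP3 at -0.65. In YPD over YPGR of WT, PTP3 was at 1.59 and PTP2 at -1.58, where 13.4% of all genes were higher and 12.9% lower.

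The 10 genes varied together to different degrees. Across the 10 libraries, centred within each experiment, each gene was set against the mean of the other 9 on the log2(FPKM + 1) scale. The Pearson correlation was highest for KAR4 (0.984), FUS3 (0.964), AGA1 (0.942) and PRM1 (0.935) and lowest for FAR1 (0.703). Within the 6 libraries of experiment 1 it was 0.950 for KAR4 and 0.943 for FUS1, but 0.532 for SST2, 0.474 for FAR1 and 0.280 for PRM6. Within experiment 2, where WT in YPD was highest for all 10 genes, the correlation ran from 0.826 for FAR1 to 0.995 for KAR4 and PRM6. That 1 library weighs heavily in the values over 10 libraries, and its part in them was not tested. The libraries of experiment 1 share a WT library, and the values are descriptions.

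The same measure was used to find other genes with a like profile among 918 genes that had at least 5 FPKM in 1 library and spanned at least 1 on the log2 scale in both experiments. FIG2 came first (0.977), with 0.938 in experiment 1 and 0.989 in experiment 2. It was at 11.4 FPKM in htl1Δ, 8.24 FPKM in npl6Δ, 11.0 FPKM in rsc1Δ, 8.48 in rsc2Δ and 13.4 FPKM in rtt102Δ, against 17.6 FPKM in WT. After a gap followed YNL235C (0.834), YFR034W-A (0.831), COS9 (0.818), POR2 (0.811), FET4 (0.808), YOL014W (0.804), YPR071W (0.793), TEC1 (0.788) and YNL109W (0.780). Of the 7 of these genes whose promoters were searched, FIG2 had 2 copies of TGAAACA, TEC1 had 3, and COS9, POR2, FET4, YOL014W and YPR071W had none. COS9 belongs to a family of near-identical genes and is uncertain.

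Genes with 2 or more copies of TGAAACA were also counted, with the 10 described here left out. In htl1Δ over WT of experiment 1, 1 of 43 measured was at least 2-fold lower (2.33%) and 4 were higher (9.3%), where 2.45% and 3.46% of genes with no copy were. In npl6Δ 2 of 42 were lower (4.76%) and 1 higher (2.38%), where 2.43% and 4.2% of genes with no copy were. In rsc1Δ 1 of 43 was lower (2.33%) and 4 higher (9.3%), where 1.55% and 1.45% were. In rsc2Δ 2 of 43 were lower (4.65%) and 4 higher (9.3%), where 2.06% and 3.05% were. In rtt102Δ 1 of 43 was lower (2.33%) and 5 higher (11.6%), where 0.727% were in each direction. The medians of the class in these 5 comparisons lay between -0.01 and 0.05. In htl1Δ over WT in YPD of experiment 2, 5 of 43 were lower and 5 higher (11.6% each), where 1.33% and 3.14% of genes with no copy were, with a median of -0.06. In YPD over YPGR of WT, 9 of 43 passed the rule upwards (20.9%) and 3 downwards (6.98%), where 12.8% and 12.9% of genes with no copy did, and the median was 0.39 against 0.01. Between the libraries labelled htl1Δ the counts were again 9 and 3, where 13.4% and 13.1% of genes with no copy passed it, with a median of 0.06. In the YPGR pair none of 43 was higher and 2 were lower (4.65%), where 0.432% and 0.37% of genes with no copy were. The class was formed after the data had been seen and it holds mating-type genes, with 2 copies each. STE2, MFA2, BAR1 and AGA2 were the 4 higher genes in htl1Δ, rsc1Δ and rsc2Δ of experiment 1. MF(ALPHA)2 was the 1 lower gene in htl1Δ and rsc1Δ. All of these also passed the rule, in the same directions, in rtt102Δ and in htl1Δ over WT in YPD of experiment 2. Mating type differed within each of these pairs, so their counts do not describe the element apart from it.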

How the data were processed

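The authors deposited 9 tables, each of 2 single libraries. The submitters' processing notes name TopHat, Cufflinks, Cuffdiff and the build sacCer3, without versions in the sources used here. The values are FPKM, scaled by the authors within each pair of libraries, so levels from different tables differ by a factor until rescaled. The deposited log2 fold change has no pseudocount and was not used. The p-values and q-values are the authors' Cuffdiff test, cited only as their call.

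Of 6931 rows per table, 115 that name several genes were left out, among them those of STE18, PRM10 and SCW10. RefSeq R64 matched 5859 identifiers, 5381 with the same coordinates. Ratios used a pseudocount of 1 FPKM, which understates differences of low genes. Depth was estimated from low values, of which 78.2% to 86.7% were whole fragments to within 0.1, with fragments of 200 ± 80 bases (SD) assumed; fragment numbers are estimates that carry no interval. The sources used here do not say whether counting used strand.

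The 10 genes and the lists were chosen with earlier results of these data known. Named genes are the 10, at most 4 per list and comparison past the 2-fold rule, and the 10 of most like profile; STE12 and TEC1 levels were added after their values were seen, and HTL1 was added as the deleted gene. Alternatives were another pseudocount, filter, centring or size rule, the authors' call, and rtt102Δ in place of WT. The ratio procedure was tested on simulated data. Python 3.11.15, pandas 2.3.3, NumPy 2.4.6 and matplotlib 3.10.9 were used.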

Additional observations from a re-analysis of the deposited data

Results flagged for a closer look

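FUS1 and PRM1 had ratios of opposite sign for the same contrast in 2 settings, which is not tested here. For htl1Δ over WT, FUS1 was at -1.86 in YPD and at 0.024 in YPGR, and PRM1 at -1.76 in YPD and at 0.11 in YPGR. For YPD over YPGR, FUS1 was at 1.82 in WT and at -0.10 between the libraries labelled htl1Δ. The values in YPGR for htl1Δ over WT, and that between the libraries labelled htl1Δ, lie close to 0, so the sign there carries little. Receptor type changed with the library labelled htl1Δ in YPD, which enters each first value for htl1Δ over WT and the last value; its part in the difference was not tested.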

How the results depend on the processing

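No paired analysis was possible because each group has 1 library, so leaving out a replicate was not possible either. Of 370 ratios of single genes under a changed pseudocount, filter or centring, 357 kept their side of the 2-fold rule, 10 fell short of it with a pseudocount of 10 FPKM and 3 came past it with 0.1 FPKM; none past the rule reversed. Counts of the 10 genes are listed here only where they moved by more than 1.5-fold, or to or from 0. Smaller changes also occurred and are not given. With 10 FPKM the count of the 10 genes was 2 in htl1Δ, 1 in npl6Δ and 1 in rsc1Δ of experiment 1. With at least 20 FPKM it was 2 in npl6Δ, and with no filter 3 in YPD over YPGR of the libraries labelled htl1Δ. Joined with the authors' call it was 1 each in htl1Δ, npl6Δ, rsc1Δ and rsc2Δ, 2 in htl1Δ over WT in YPD and 0 in both medium comparisons. A 1.5-fold rule gave 5 in rsc1Δ, 8 in rsc2Δ and 2 in rtt102Δ. With rtt102Δ in place of WT it was 2 in htl1Δ. Centring changed no count. FIG1, FUS2 and PRM6 rest on few fragments, down to about 1 for PRM6 in YPGR, and their ratios are the least certain.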

Other observations

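The mating-type genes gave a further view of the same libraries, among libraries of 1 receptor type. AGA2 encodes the subunit of a-agglutinin that is joined to Aga1 on a cells. Its level was 605 FPKM for htl1Δ, 567 for rsc1Δ and 397 for rsc2Δ, against 1153 FPKM in rtt102Δ, with log2 ratios of -0.93, -1.02 and -1.53 in that order. In rsc2Δ over rtt102Δ 6 of the 7 a-specific genes were at least 2-fold lower, among them BAR1, the protease that degrades alpha-factor (-1.42), and STE2 (-1.05). MFA1 was at 8322 FPKM in rsc2Δ against 45511 FPKM in rtt102Δ. In htl1Δ 1 of the 7 was lower, MFA1 (-1.83), and in rsc1Δ 1 was, AGA2. Of all genes measured, 2.28% were lower in rsc2Δ over rtt102Δ, 2.27% in htl1Δ and 2.19% in rsc1Δ.

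SAG1 encodes alpha-agglutinin, the adhesin of alpha cells. It was at 278 FPKM in npl6Δ against 1167 FPKM in WT of experiment 1, 2 libraries of the alpha type, with a log2 ratio of -2.06. Of the 4 alpha-specific genes 2 were at least 2-fold lower there, SAG1 and MF(ALPHA)2 (-2.13), an alpha-factor gene, whereas MF(ALPHA)1 was at 0.92. Of all genes 3.22% were lower in that comparison. In WT of experiment 2 all 4 were at least 2-fold higher in YPD than in YPGR, where 13.4% of all genes were. SAG1 was at 1334 FPKM in YPD and 155 FPKM in YPGR (3.10). These comparisons rest on 1 library each, and those with rtt102Δ were chosen after the data had been seen.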
